A study of Mus musculus with 4 samples.

Results

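The 9 genes described here mark the p53 pathway (Trp53, Mdm2, Mdm4, Cdkn1a and Ccng1) and the integrated stress response (Atf4, Ddit3, Trib3 and Asns). They were chosen by gene name, and all 9 were found among the 20001 gene names of the deposited m6A site tables, with 772 of the 1076788 distinct sites listed. The tables come from GLORI, a chemical assay for N6-methyladenosine (m6A), the methylation of adenosine on its base. Glyoxal and nitrite turn unmethylated adenosine into inosine, read as G, while m6A is still read as A, so a site's level is its A reads as a percentage of all A or G reads. Polyadenylated RNA came from mouse retinal organoids of an Rx:GFP line at day 6. Per the series text every library, controls included, carried FKBP12F36V-HA at the C-terminus of endogenous Mettl3, the catalytic subunit of the mRNA m6A writer, and dTAG13 is a compound that directs proteins with this tag to degradation. There were 2 untreated libraries (0 h) and 2 libraries from cells given 125 nM dTAG13 for 8 h. The labels name no vehicle for the untreated cells and no separate cultures behind the replicates, so p-values measure the spread between these libraries, which may be technical. The genotype field names Mettl3 in 1 untreated library and other members of that family in the other 3, whereas the growth protocol and the series text name Mettl3. The tables hold no measure of the METTL3 protein.

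p53, encoded by Trp53, is a transcription factor that responds to DNA damage and other stress. Mdm2, a ubiquitin ligase that p53 itself activates, and its relative Mdm4 hold p53 in check. In the integrated stress response, kinases phosphorylate the initiation factor eIF2, general translation drops and translation of Atf4 mRNA increases, after which the ATF4 protein activates genes of amino acid supply and cell death. Both factors are controlled largely at the protein level, so the RNA of their target genes is the usual sign of their activity.

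Start-site windows of all 9 genes were present in RefSeq (assembly GRCm38.p6), 11 windows in all, each from 250 bases before to 50 bases after an annotated start. They were searched for 2 motifs, 1 for each factor. A pair of CATG cores with any 6 bases between them, as in a p53 response element, was searched on both strands and occurs in 0.712% of 32851 windows. Among the 9 genes it was found only in the upstream window of Cdkn1a. TGATGNAA, the core of a C/EBP-ATF element bound by ATF4 with a partner, occurs in 3.97% of windows and was found in those of Asns and Trib3. The motif is in capitals in the following 30-base stretches, which lie at chr17:29090923-29090952 (plus strand), chr6:7693214-7693243 (minus strand) and chr2:152344028-152344057 (plus strand, opposite to the gene).
Cdkn1a: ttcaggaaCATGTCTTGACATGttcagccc
Asns: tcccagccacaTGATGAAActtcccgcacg
Trib3: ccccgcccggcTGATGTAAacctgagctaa
A match describes the letters only, and no binding was measured.

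The untreated libraries held 335607 and 350462 sites and the treated ones 220034 and 263069, with median depths of 75 to 91 A and G reads per site. The tables also give each gene a coverage value per library, which is not scaled to depth. Its median over the 12520 genes present in all 4 libraries ran from 82.4 to 110.9, so coverage was divided by the median of its library (relative coverage) before libraries were compared. All 11 retinal progenitor markers examined, among them Rax, Pax6, Six3 and Lhx2, were present in every library, with a summed coverage of 5633 and 6704 in untreated and 3824 and 5609 in treated libraries. Divided by the median gene, these sums were 56.8 and 65.0 against 46.4 and 50.6, lower in both treated libraries. In relative coverage, 5 of the 11 markers had both treated libraries below both untreated ones, and 1 had both above. Of all 12520 genes, 29.2% lay below and 17% above in this way. Sfrp2, the most covered marker, held 1786 and 2407 of the untreated and 1174 and 1493 of the treated sums. The part of these markers in the members' values was not tested. The 7 pluripotency markers, including Pou5f1 and Nanog, were also present in every library, with sums of 10.2 and 10.02 against 9.23 and 10.01 times the median gene. In relative coverage 1 of the 7 was separated below and 1 above. Dppa5a, the lower one, had coverage of 525 and 486 untreated and of 283 and 444 treated. Klf4, the higher one, had 52.2 and 32.5 untreated and 62.3 and 189 treated. Markers of neurons, mesoderm and endoderm, mesenchyme and pigment epithelium were listed less completely. Pou4f2, T and Rpe65 were absent from every table. A gene is listed only where it has a called site, so its absence does not mean that its RNA was absent. In such bulk RNA, fewer cells of a type and less RNA per cell cannot be told apart.

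No member had higher coverage after dTAG13 beyond the replicate spread, and 4 had 0.432 to 0.552 times the untreated level. Trp53, Cdkn1a, Ccng1 and Asns lay below both untreated libraries in both dTAG13 libraries, whereas Mdm2, Mdm4, Atf4 and Trib3 overlapped between groups. With limma on log2 coverage and Benjamini-Hochberg adjustment over all 12520 genes, 0 of the 8 members present in every library passed an adjusted p of 0.05, as did 0% of all genes. At an unadjusted p under 0.05, 4 of the 8 were lower and 0 were higher, where 8.34% and 4.4% of all genes were. Separation of both dTAG13 libraries below both untreated ones was seen in 4 of the 8 members and in 29.2% of all genes. The median change of the 8 members was -0.51 on the log2 scale, against -0.07 for all genes. Ddit3 had 0 listed sites in dTAG13 replicate 1, so it had no coverage value there and did not enter this fit.

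**Figure D1:**
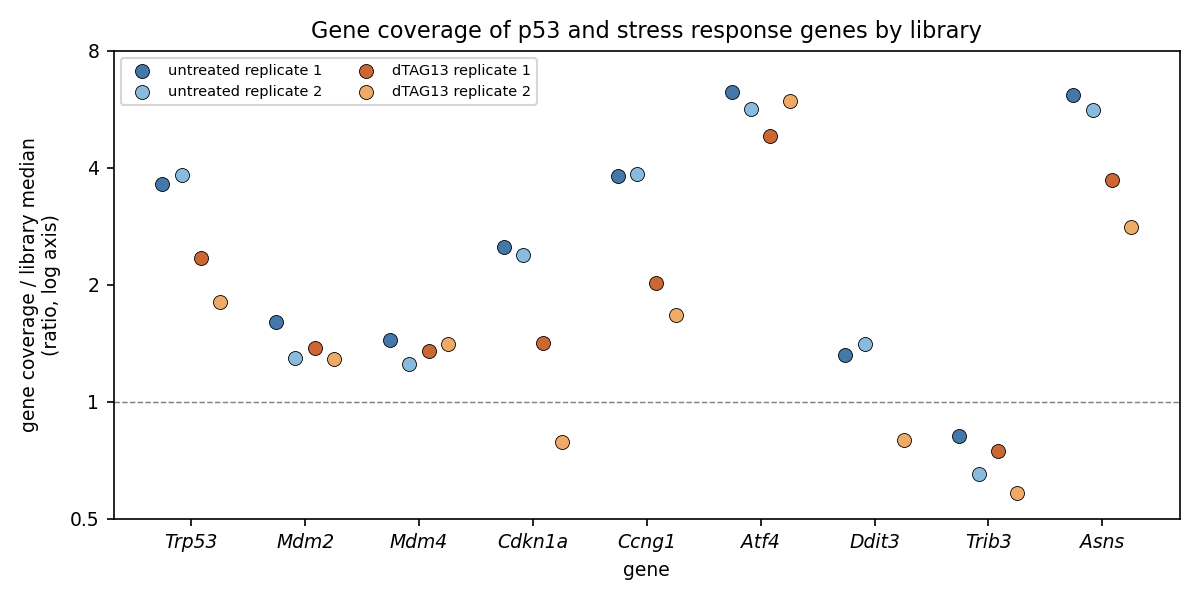
Gene coverage divided by the library's median gene (ratio, log axis) for each of the 9 genes, 1 point per library. Both dTAG13 points of Trp53, Cdkn1a, Ccng1 and Asns lie below both untreated points, while those of Mdm2, Mdm4, Atf4 and Trib3 overlap the untreated range; Ddit3 has no value in dTAG13 replicate 1.

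The regulator at the head of the p53 arm was itself among the lower genes. Trp53 had a deposited coverage of 360 and 395 untreated and of 193 and 200.5 treated. Its relative coverage was 3.73 ± 0.14 without and 2.07 ± 0.38 with dTAG13 (SD, n = 2 each). The log2 change was -0.86 ± 0.22 (SE; limma adjusted p 0.363), and 1.81% of all genes had a change as low or lower. Mdm2, by contrast, had coverage of 159 and 134 without and 113 and 143 with dTAG13. Its log2 change was -0.12 with a 95% interval from -0.65 to 0.41. For Mdm4, at 143 and 129 in untreated and 111 and 156 in treated libraries, the change was 0.04 with an interval from -0.46 to 0.54. The groups overlapped for both inhibitors, and each interval holds negative and positive changes up to its own limits.

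Cdkn1a and Ccng1, which like Mdm2 are p53 target genes, had the lowest values of the members, without passing the adjusted threshold. Cdkn1a, which encodes the cell cycle inhibitor p21, had coverage of 248 and 246 untreated and of 117 and 87.2 treated. This gave 2.44 ± 0.09 against 1.10 ± 0.45 in relative coverage (SD, n = 2 each) and a log2 change of -1.21 ± 0.32 (SE; limma adjusted p 0.363). The change was among the lowest 0.335% of genes. The 2 treated libraries differed from each other, at 1.42 and 0.786, but both stayed below the untreated values. Ccng1, which encodes cyclin G1, had coverage of 377 and 397 without and 167 and 186 with dTAG13. Its relative coverage went from 3.83 ± 0.03 to 1.85 ± 0.25 (SD, n = 2 each), a log2 change of -1.06 ± 0.21 (SE; limma adjusted p 0.363). Here the replicates of each group lay close together.

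In the stress response arm, the groups overlapped for Atf4 and Trib3 and were separated for Asns, and the difference between these genes was not tested. Atf4 had coverage of 623 and 584 untreated and of 397 and 659 treated, and in relative coverage the groups overlapped, at 6.28 and 5.66 against 4.82 and 5.95. Its log2 change was -0.15 with a 95% interval from -0.69 to 0.38. Asns, the asparagine synthetase gene, had coverage of 611 and 581 without and 306 and 312 with dTAG13. Relative coverage went from 5.89 ± 0.38 to 3.27 ± 0.64 (SD, n = 2 each), a log2 change of -0.86 ± 0.23 (SE; limma adjusted p 0.363). Trib3, a pseudokinase gene induced by ATF4 and CHOP, was the least covered member, at 80.8 and 67.2 without and 61.5 and 64.5 with dTAG13. Its groups overlapped in relative coverage, and its change was -0.14 with an interval from -0.74 to 0.45. Ddit3, the gene of the pro-apoptotic factor CHOP, had coverage of 131 and 145.5 without dTAG13 and 88.7 in dTAG13 replicate 2. In a fit of the 3 libraries that list it, its change was -0.78 ± 0.27 (SE; limma adjusted p 0.367), with the lone treated library, which has no spread of its own, assumed to vary like the others. Its locus overlaps Mars1 and Mbd6 in RefSeq, and whether the deposited coverage was counted by strand is not given in the sources used here.

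The size of these changes has to be read beside the coverage of the genes. Genes of high coverage had lower values with dTAG13 in general: the median log2 change was 0.10 in the decile of genes with the lowest coverage and -0.35 in the decile with the highest. Atf4 and Asns belong to this top decile, in which 69.2% of genes were separated downwards. Trp53 and Ccng1 belong to the next, with a median change of -0.27 and 55.4% separated downwards, and Cdkn1a to the one below, with -0.18 and 41.5%. The 4 lower members lay below the median of their decile, and Atf4 lay above it. With cyclic loess, a scaling that levels such a trend and was added after it was seen, the changes were -0.58 ± 0.23 for Trp53, -1.04 ± 0.33 for Cdkn1a, -0.78 ± 0.21 for Ccng1 and -0.53 ± 0.24 for Asns (SE). Asns then had a limma unadjusted p of 0.076, and it also missed an unadjusted p of 0.05 without untreated replicate 1, at 0.0561. Under this scaling the value of Atf4 turned to 0.20 ± 0.21 (SE), and that of Mdm2 to 0.011 ± 0.22 (SE). The part of library depth or composition in the trend was not tested.

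**Figure D2:**
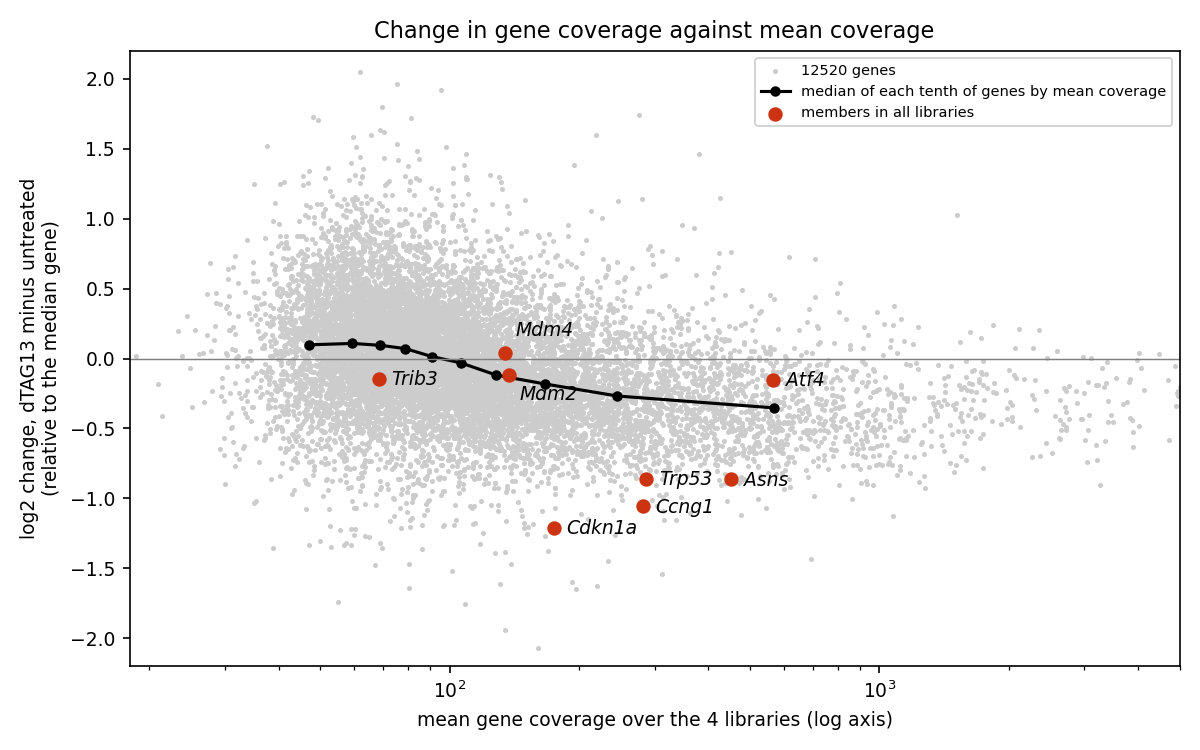
Log2 change in gene coverage (dTAG13 minus untreated, relative to the median gene) against mean coverage over the 4 libraries (log axis), with 12520 genes in grey and the 8 members present in all libraries in red; axes are limited, so a few extreme genes fall outside. The black line of medians per decile of genes goes from 0.10 to -0.35, and Cdkn1a, Ccng1, Trp53 and Asns lie below it.

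The wider pathways were described from lists of known genes. Of 32 other p53 target genes, 29 had coverage in all 4 libraries. In limma 0 of them passed an adjusted p of 0.05, and at an unadjusted p under 0.05, 7 were lower and 0 higher. Their median change was -0.23, and 13 lay separated below and 4 above the untreated libraries. Of all genes, 8.34% were lower and 4.4% higher at that unadjusted p, and 29.2% were separated below and 17% above. These shares depend on coverage. Lower at that p were 4.55% of genes in the decile of lowest coverage and 24.4% in the highest, and 12.5% and 69.2% were separated below. The 7 lower genes were Plk2 (-0.86), Ei24 (-0.77), Tnfrsf10b (-0.66), Sesn2 (-0.65), Psrc1 (-0.63), Btg2 (-0.63) and Ckap2 (-0.52), all on the log2 scale. The 4 separated above were Ppm1d (0.53), Plk3 (0.49), Aen (0.46) and Polk (0.18), which did not reach an unadjusted p of 0.05 in limma. Ei24, for example, had coverage of 728 and 718 untreated and of 330.2 and 483 treated. The apoptosis genes Bax (-0.04 ± 0.25), Bbc3 (-0.22 ± 0.20) and Pmaip1 (0.0096 ± 0.20), which encode BAX, PUMA and NOXA, did not pass (SE). Bbc3 was separated below the untreated libraries, and Bax and Pmaip1 overlapped between groups. The value of Bax turned to 0.31 and that of Pmaip1 to -0.088 under cyclic loess. Zmat3 (-0.30 ± 0.22), Phlda3 (-0.28 ± 0.24) and Gadd45a (-0.47 ± 0.34) did not pass either (SE). Among 13 of 16 upstream regulators with values, such as Atm, Chek1 and Usp7, 0 passed at either threshold, with a median change of -0.17.

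The ATF4 target list gave a similar count. Of its 40 genes 36 had values in every library, 0 passed an adjusted p of 0.05 in limma, and 6 were lower and 0 higher at an unadjusted p under 0.05. The median change was -0.23, with 16 genes separated below and 4 above, beside the same 8.34% lower, 29.2% below and 17% above among all genes. The 6 were Shmt2 (-0.77) of mitochondrial one-carbon metabolism, the transcription factor Atf5 (-0.66), Sesn2 (-0.65), which stands in both lists, the amino acid transporter subunit Slc3a2 (-0.62) and the tRNA synthetases Nars (-0.59) and Cars (-0.51). All 6 lie in deciles 7 to 10 of coverage, with 10 the highest. In these deciles the median change of all genes ran from -0.12 to -0.35, and 33.9% to 69.2% of genes were separated below. The list was not tested against genes of like coverage. The serine synthesis genes Psat1 (-0.43 ± 0.20) and Phgdh (-0.22 ± 0.20) were separated below without reaching an unadjusted p of 0.05 (SE). Of the list genes chosen by name, Atf3, Chac1, Slc7a11, Ppp1r15a and Ddit4 had positive values and Sesn2, Psat1 and Phgdh negative ones. Atf3 had coverage of 56.5 and 47.5 without and 50.4 and 91.5 with dTAG13, a log2 change of 0.47 ± 0.25 (SE; limma adjusted p 0.458). Chac1, which encodes a glutathione-degrading enzyme, was at 147 and 150.4 without and 124 and 262 with dTAG13, a change of 0.36 ± 0.27 (SE; limma adjusted p 0.592). Slc7a11, the gene of a cystine transporter, was at 53.9 and 63.3 untreated and at 61.97 and 81.8 treated, a change of 0.37 ± 0.20 (SE; limma adjusted p 0.470). All 3 were separated above the untreated libraries in relative coverage. With upper quartile centring of all 4 libraries, Atf3 was at 0.62 and Slc7a11 at 0.52 (limma adjusted p 0.395 and 0.390). Without dTAG13 replicate 1, the changes were 0.69 for Atf3, 0.69 for Chac1 and 1.00 for Ppp1r15a. The values without dTAG13 replicate 1 rest on dTAG13 replicate 2 alone, the treated library with the higher coverage of these 3 genes. Ppp1r15a, which encodes the GADD34 subunit that reverses eIF2 phosphorylation, ranged most, from 37.8 in dTAG13 replicate 1 to 161 in dTAG13 replicate 2. Its change of 0.17 ± 0.53 (SE) turned to -0.66 without dTAG13 replicate 2. Ddit4 (0.04 ± 0.22) overlapped between groups (SE).

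All 15 genes of the list of eIF2 kinases, eIF2 and eIF2B subunits and unfolded protein response genes had values, with a median change of -0.14. In limma 0 passed an adjusted p of 0.05. At an unadjusted p under 0.05 only Eif2ak1 (-0.56), the gene of the heme-regulated kinase HRI, was lower and 0 were higher. Of all genes, 8.34% were lower and 4.4% higher at that p. In relative coverage 7 of the 15 were separated below and 3 above, beside 29.2% and 17% of all genes. This list was not tested against genes of like coverage either. Eif2ak3 (0.38 ± 0.29) and Eif2ak4 (-0.20 ± 0.23), the genes of the kinases PERK and GCN2, did not pass, nor did the chaperone gene Hspa5 (-0.16 ± 0.20; 0.20 under cyclic loess), a marker of endoplasmic reticulum stress (SE). Under cyclic loess the counts at an unadjusted p under 0.05 became 2 lower and 2 higher p53 targets and 0 lower and 0 higher ATF4 targets. The median of all genes lay at -0.15 without centring and at 0.084 with upper quartile centring. With upper quartile centring, 2 of the 92 list genes were lower and 6 higher at an unadjusted p under 0.05, against 13 and 0 with median centring. The 2 lower genes were p53 targets, and the 6 higher ones were 3 p53 targets, 2 ATF4 targets and 1 gene of the eIF2 list. Among all 12520 genes, 1044 were lower and 551 higher at an unadjusted p under 0.05 with median centring. With upper quartile centring the counts were 455 and 1112, and under cyclic loess 530 and 616. The direction of these counts thus changed with the scaling, in all genes as in the lists.

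**Figure D3:**
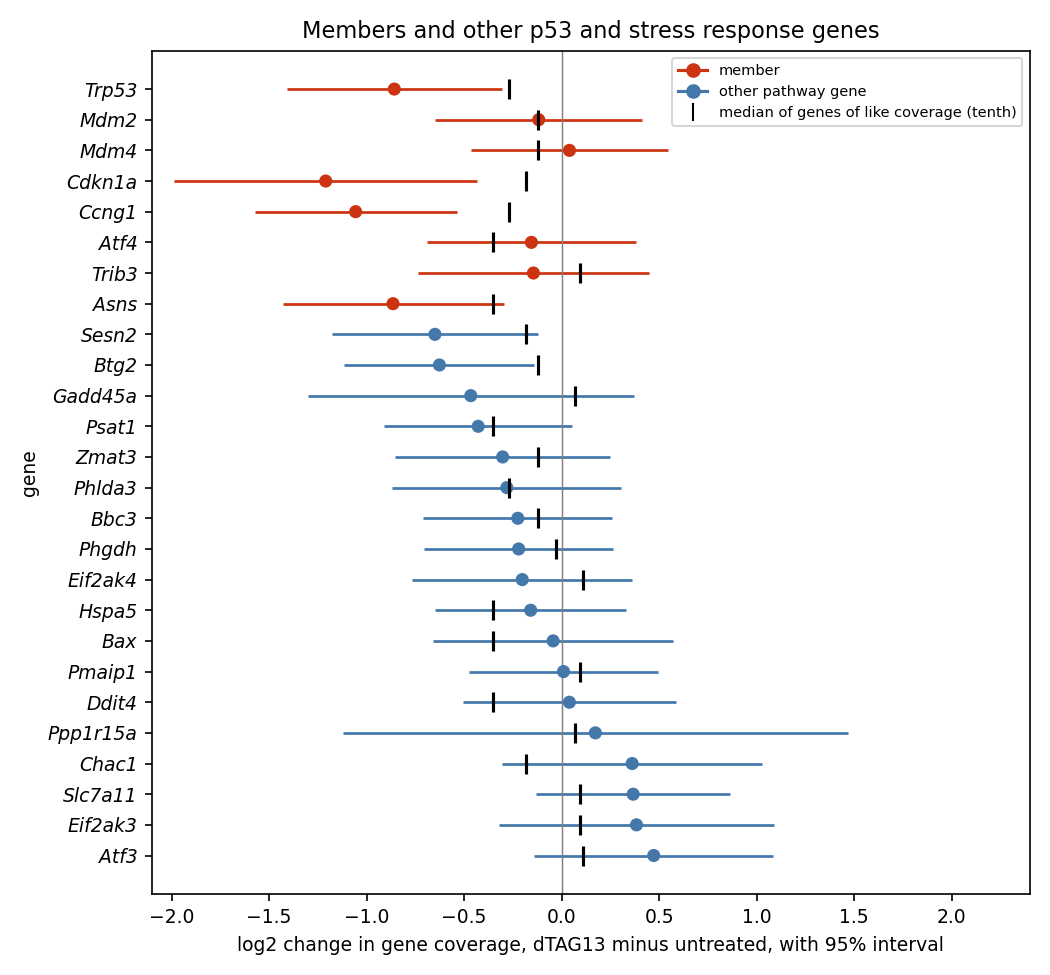
Log2 change in gene coverage (dTAG13 minus untreated) with its 95% interval from limma for the 8 members in red and 18 other pathway genes in blue; the black tick is the median of all genes in the same decile of coverage. The intervals of Trp53, Cdkn1a, Ccng1 and Asns lie wholly below 0, and those of Trp53, Cdkn1a and Ccng1 also lie below their ticks. Among the 18 other genes, the intervals of Sesn2 and Btg2 lie wholly below 0 too, and that of Btg2 also lies below its tick.

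Fewer m6A sites were listed in most members after dTAG13. The 9 genes together held 252 and 270 sites in the untreated and 157 and 186 in the treated libraries, or 261 ± 12.7 against 171.5 ± 20.5 (SD, n = 2 each). The ratio of 0.657 lay near the 0.714 of all sites inside genes. Both dTAG13 libraries were below both untreated ones, with p = 0.333 in the exact two-sided permutation test, the smallest that 2 against 2 libraries allow. Trp53 had 43 and 26 sites without and 14 and 14 with dTAG13, and Mdm4 had 35 and 26 against 13 and 13. Cdkn1a had 27 and 21 without and 5 and 7 with dTAG13. Trib3 had 6 and 7 against 2 and 1. For these 4 genes, for Mdm2 (42 and 46 against 27 and 32) and for Asns (33 and 51 against 25 and 32) the groups did not overlap. These were 6 of the 8 members listed in every library, where 44.6% of all genes were separated this way. Among genes with a mean of at least 20 untreated sites it was 5 of 6 members and 65.7% of genes. Coverage was also separated downwards for Trp53, Cdkn1a and Asns, while it overlapped for Mdm2, Mdm4 and Trib3, and its part in the number of sites was not tested.

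Ccng1, Atf4 and Ddit3 overlapped between groups in their number of sites. Ccng1 had 41 and 70 sites untreated and 52 and 51 treated, beside a relative coverage of 0.481 times the untreated level. Atf4 went the other way in dTAG13 replicate 2, with 20 and 17 sites without and 19 and 29 with dTAG13. Ddit3 had 5 and 6 without and 0 and 7 with dTAG13. The member sites were deeper and lower than the average site inside genes: their median depth ran from 111 to 189.5 reads and their median level from 18.2% to 24.1%, against 87 to 112 reads and 27.0% to 29.3%. The median level of listed member sites was 19.6% and 18.2% without and 23.3% and 24.1% with dTAG13. Their median depth was 189.5 and 183.5 reads without and 111 and 155 with dTAG13. Over all sites inside genes the level was 28.2% and 27.0% against 29.3% in both treated libraries. These medians are over the sites each library lists, and the part of depth was not tested.

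**Figure D4:**
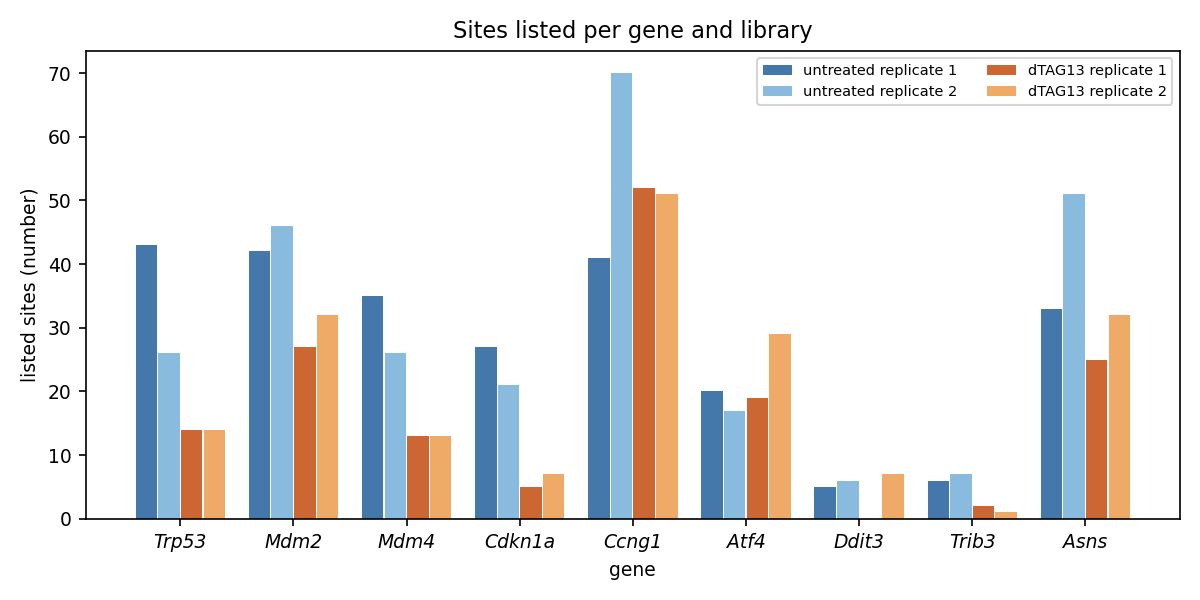
Number of sites listed per gene in each of the 4 libraries. Trp53, Mdm2, Mdm4, Cdkn1a, Trib3 and Asns have fewer sites in both dTAG13 libraries than in both untreated ones, while Ccng1, Atf4 and Ddit3 overlap.

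Listed positions seldom recurred. Of the 772 member sites, 689 (89.2%) appeared in a single library, 73 in 2 libraries, 10 in 3 libraries and 0 in all 4, against 91.4%, 7.77%, 0.728% and 0.146% of all sites inside genes. No member site could therefore be tested in the model of A and G reads, which needs all 4 libraries. Mdm4 (87 sites) and Trib3 (16 sites) had no site in more than 1 library. Their best covered sites were at chr1:132916176 in Mdm4, with 343 A among 2098 reads (16.3%, Wilson 95% interval 14.8 to 17.99%), and chr2:152180283 in Trib3, with 117 A among 142 reads (82.4%, 75.3 to 87.8%), each in 1 untreated library. Such intervals cover counting error only, since reads need not be independent molecules. Positions are as the tables list them. The submitters' processing notes name mm10, but the listed sites of 8 of the 9 genes lie outside their GRCm38 interval, so the build is not settled and exon, intron and UTR were not assigned.

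The untreated libraries shared 21 member sites, and 18 of these (85.7%) were listed in neither dTAG13 library, against 80.0% of the 25086 such sites inside all genes. Of the 7 with an untreated mean level of 40% or more, 1 was listed after dTAG13. The matching share for all sites inside genes at that level was not computed, so the count describes these sites only. The site that was listed, chr15:80140996 (plus strand) in Atf4, was at 84.1% (132 of 157 reads) and 59.9% (297 of 496 reads) without dTAG13 and at 21.9% (86 of 393 reads) in dTAG13 replicate 1. Wilson 95% intervals were 77.5 to 89.0%, 55.5 to 64.1% and 18.1 to 26.2%, so the treated library lay below both untreated ones beyond counting error. In the quasi-binomial model without dTAG13 replicate 2, the difference of -50.1 points had an adjusted p of 0.455, where 0% of 4260 sites passed. The highest untreated mean, 78.9%, was at chr10:117525846 (minus strand) in Mdm2, at 87.3% and 70.5%, with no listing after dTAG13. Other such sites were chr11:69479307 in Trp53 (49.6% and 41.2%), chr17:29319658 in Cdkn1a (76.9% and 32.9%) and chr11:40640796 in Ccng1 (63.7% and 33.9%). An unlisted site may be below the listing limits of 15 reads, 5 A reads and a level of 10%, or uncovered.

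**Figure D5:**
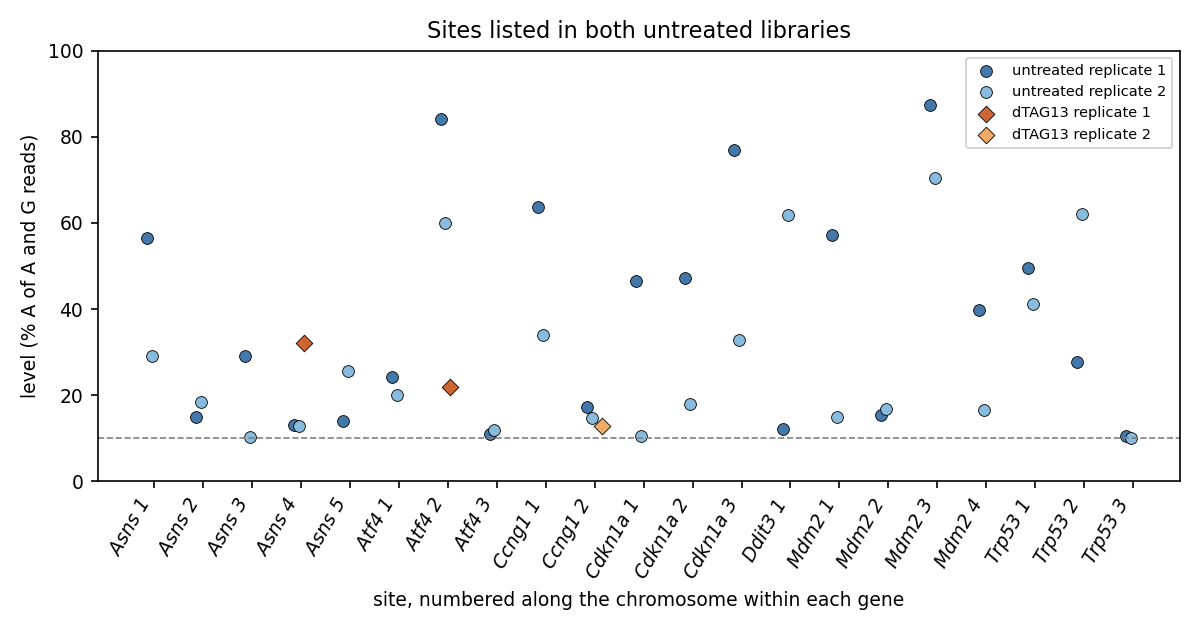
Level (% A among A and G reads) at the 21 member sites listed in both untreated libraries, 1 point per library that lists the site; sites are numbered along the chromosome within each gene, and the dashed line is the listing limit of 10%. Only 3 of the 21 sites have a dTAG13 point, at Asns 4, Atf4 2 and Ccng1 2.

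The dTAG13 libraries shared 12 member sites, of which 5 (41.7%) were listed in neither untreated library, against 68.8% of 11156 such sites inside all genes. Most were low: chr15:80141188 in Atf4, the best covered, was at 15.9% of 804 and 13.3% of 1054 reads. Neighbouring Atf4 sites at chr15:80141334 and chr15:80141337 were at 25.3% and 19.5% in untreated replicate 2. They were at 32.04% and 26.3% in dTAG13 replicate 1 and at 23.8% and 12.7% in dTAG13 replicate 2, values on both sides of the untreated one. In Mdm2, chr10:117525177 was at 22.6% of 199 reads in untreated replicate 1, at 43.2% of 285 reads in dTAG13 replicate 2 and at 100% of 21 reads in dTAG13 replicate 1. Its adjusted p was 0.833 without untreated replicate 2. In Asns, chr6:7685373 was at 60.2% and 14.6% in the dTAG13 libraries and 16.5% in untreated replicate 2, so the treated pair differed more between themselves than from the untreated library. At chr6:7682281 in Asns the level was 13.1% and 12.8% without dTAG13 and 32.2% in dTAG13 replicate 1 (adjusted p 0.369 without dTAG13 replicate 2). At the 6 other sites listed in 3 libraries, the Atf4 pair included, the group means differed by -3.14 to 3.55 points. All 10 sites listed in 3 libraries could be fitted only with 1 library left in a group. Such fits and their adjusted p-values therefore cannot decide whether a level changed.

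The tables also give each gene a conversion rate, and its complement to 100% is called the unconverted share here. How the authors computed it, and over which positions, is not given in the sources used here. The share was lower with dTAG13 in both libraries for Trp53, Mdm2, Mdm4, Cdkn1a, Atf4 and Asns, 6 of 8 members, where 40.9% of all genes were separated this way. In percentage points the largest separated difference was in Atf4, and on the log2 odds scale in Mdm2 (0.63 against 0.55 in Atf4). Atf4 went from 5.44% ± 0.23 to 3.77% ± 0.22 (SD, n = 2 each). Mdm2 went from 4.01% ± 0.14 to 2.63% ± 0.12, and Cdkn1a, from 3.78% ± 0.45 to 2.76% ± 0.24 (SD, n = 2 each). Trp53 went from 3.93% ± 0.10 to 3.34% ± 0.00071, and Mdm4, with the lowest share of the 8, from 2.37% ± 0.05 to 1.71% ± 0.17 (SD, n = 2 each). Mdm2 and Mdm4 were thus separated in their unconverted share while their coverage overlapped between groups. In Ccng1 (3.95% and 3.46% without, 2.66% and 4.08% with dTAG13) and Trib3 (8.22% and 8.14% without, 2.76% and 12.7% with dTAG13) the treated libraries lay on both sides. With limma on log2 odds, 0 of 8 members passed an adjusted p of 0.05, as did 0% of all genes, and 0 of 8 reached an unadjusted p under 0.05, where 11.2% of genes had higher conversion. The smallest member value was that of Mdm2, an adjusted p of 0.425. The median gene itself went from 4.15% and 3.78% to 3.13% and 3.26%. Relative to it, the differences of Trp53, Ccng1 and Asns turned in sign.

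RefSeq holds pseudogene copies named Trp53-ps and Mdm4-ps, and reads of these genes and their copies may not be told apart. Among all 12520 genes, the profiles of relative coverage over the 4 libraries closest to Trp53 were those of Ier2, Gyg and Ap2s1, with Euclidean distances of 0.058 to 0.096 on the log2 scale against a median of 0.941. Closest to Atf4 were Sox12, Hdac5 and Ube2g1, at 0.018 to 0.027 against 0.53. With 4 libraries such likeness describes these values only.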

How the data were processed

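Each library has 1 site table, mapped to its group by sample title. The authors deposited per-site counts of A or G reads and of A reads, not normalised, the fraction of A, the conversion fraction of the gene, a coverage signal per gene, not scaled to depth, and p-values with adjusted p-values of their site test. Per the file headers, no aligner, caller or duplicate handling is named, and none is given in the sources used here. Only called sites are listed.

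Gene coverage was taken as log2 with a pseudocount of 0, centred on the library median, and fitted with limma 3.58.1 (R 4.3.3). The conversion rate was fitted likewise on log2 odds. Site counts (at least 20 reads per library) were fitted with a quasi-binomial model with limma-moderated dispersion, held at 1 or above. Tests were two-sided and adjusted over all genes or sites, with a threshold of 0.05. The coverage and site fits were run on simulated data whose planted coverage changes were larger than those of the members. Changes of the members' size were not simulated. Planned motif counts around sites were not run without a genome of the tables' build. The members, lists and named genes were chosen with earlier results of these data known. Named were all 9 members, their sites in 3 or more libraries, the best covered site shared within a group and 18 pathway genes fixed by name. After their values were seen, the pathway genes at an unadjusted p under 0.05, the p53 targets separated above and further sites shared by both untreated libraries were added.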

Additional observations from a re-analysis of the deposited data

How the results depend on the processing

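With 2 libraries a group, the count of members past an adjusted p of 0.05 was 0 for coverage and conversion under every alternative run, and 3 or 4 members were lower in coverage at an unadjusted p under 0.05. Trp53, Cdkn1a and Ccng1 kept this under all 10 alternatives. No alternative gave an adjusted p under 0.05 for any of the 92 other pathway genes. Their number lower at an unadjusted p under 0.05, 13, was 3 without centring, 2 with upper quartile centring, 3 with cyclic loess (added after the data were seen) and 4 to 11 without 1 library (4 without either untreated library or dTAG13 replicate 1). The number higher, 0, was 6 with upper quartile centring, 2 with cyclic loess and 0 to 4 without 1 library. Among all 12520 genes the number lower, 1044, was 674 without centring, 455 with upper quartile centring and 530 with cyclic loess. The number of all genes higher, 551, was 277, 1112 and 616 in the same order. The same replicate numbers in both groups did not pair the libraries (correlation of deviations 0.0023). With the replicate number as a block, 4 members and 8 other pathway genes were lower, and 0 passed an adjusted p of 0.05. Member sites could be tested only without 1 library, 1 to 5 of them. The ratio of listed sites, 0.657, was 0.602 to 0.713 without 1 library, 0.838 at levels of 20% or more and 0.919 per site listed inside genes.

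Some coverage changes turned in sign, among them that of Gadd45a (-0.47) without untreated replicate 1. Without centring Mdm4 was -0.042, Pmaip1 -0.072 and Ddit4 -0.042. With upper quartile centring Mdm2 was 0.034, Trib3 0.0063 and Bax 0.11. With cyclic loess Mdm2 was 0.011, Atf4 0.20, Bax 0.31, Pmaip1 -0.088 and Hspa5 0.20. Without 1 library the ranges were -0.27 to 0.036 for Mdm2, -0.063 to 0.14 for Mdm4, -0.32 to 0.035 for Trib3, -0.30 to 0.21 for Bax, -0.029 to 0.048 for Pmaip1, -0.94 to 0.0073 for Gadd45a, -0.14 to 0.22 for Ddit4 and -0.66 to 1.00 for Ppp1r15a. Conversion changes centred on the median gene were -0.081 for Trp53, -0.15 for Ccng1 and -0.082 for Asns, and without 1 library -0.15 to 0.49 for Ccng1 and -0.71 to 1.65 for Trib3. The cause was not tested.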

Other observations

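Even where a member site was listed in both untreated libraries, its level often differed between them. Over the 21 such sites the median absolute difference was 18.7 points, against 9.67 points over 25086 sites inside all genes. Of the 21, 13 (61.9%) differed by more than 10 points, against 49.1% of all sites. This pair of libraries was the widest for member sites. In the dTAG13 pair the median was 10.8 points over 12 member sites, against 8.28. In pairs of 1 untreated and 1 treated library it ran from 6.88 to 13.4 points, against 9.33 to 9.66. The widest was chr10:127129612 in Ddit3, at 12.2% of 229 reads in untreated replicate 1 and 61.9% of 21 reads in untreated replicate 2. At chr17:29319535 in Cdkn1a the levels were 47.1% of 297 reads and 17.96% of 618 reads, with Wilson 95% intervals of 41.5 to 52.8% and 15.1 to 21.2% that do not meet.

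Member sites also lay close together. Between 34.4% and 41.7% of them per library had another listed site within 10 bases on the same strand, against 29.0% to 32.2% of all sites inside genes.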
